A study of Mus musculus with 37 samples.

Results

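The genes described here are the Nrf2 regulators and targets, 10 genes found by symbol in the lung count table, where they are 10 of 24421 symbols. The list holds the transcription factor Nrf2 itself (Nfe2l2), its inhibitor Keap1, and 8 genes that Nrf2 is known to switch on (Nqo1, Hmox1, Gclc, Gclm, Srxn1, Txnrd1, Slc7a11 and Gsr), so that 2 of the 10 are regulators and not targets. All 10 passed the filter on low counts. Lung RNA was sequenced from 37 C57BL/6 mice, 1 library per mouse. The mock group (7 mice) received 0 Gy and the other unirradiated group, mock + NR (5 mice), drank nicotinamide riboside (NR), a precursor of NAD related to vitamin B3, at 12 mM. The silicon (7 mice) and silicon + NR (6 mice) groups received 0.75 Gy of silicon ions of 300 MeV per nucleon, the latter with the same drinking water, which was given continuously from before the exposure. The GCR group (7 mice) received 0.75 Gy of a beam mixture that simulates galactic cosmic radiation, and the gamma group (5 mice) 0.75 Gy of gamma rays from a caesium source. GCR and gamma were given without NR. The GCR mixture was mostly protons, of 1 GeV (34.8%) and 250 MeV (39.2%), with helium (18.0%), oxygen (5.8%), silicon (1.1%) and iron (1.0%). Of the 37 mice 22 are labelled male. The mock mice comprised 5 males and 2 females, and the GCR mice 3 males and 4 females. Neither age nor the time from exposure to dissection is given in the sources used here, and nothing in the labels ties mice to litters or cages.

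Nrf2 is the main transcription factor of the response to oxidants and electrophiles. Keap1 binds it in the cytoplasm and hands it to an E3 ubiquitin ligase for degradation, and oxidants or electrophiles that modify cysteines of Keap1 let newly made Nrf2 reach the nucleus. There it pairs with a small Maf protein on antioxidant response elements and raises genes that make glutathione, recycle thioredoxin and detoxify quinones and haem. In lung these genes are known from the airway epithelium and from macrophages. Because Nrf2 is controlled mainly through the stability of its protein, the level of Nfe2l2 RNA does not measure its activity.

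The antioxidant response element has the core TGACNNNGC, and the stretches that match it near the members' start sites are shown because they are the letters such a factor would read. RefSeq promoter windows on GRCm38.p6, from 250 bases before to 50 bases after a start site, were held for 7 members, in 9 windows because Txnrd1 has 3. Hmox1, Gclc and Gsr had no entry. The core was searched on both strands and stood in 4 of the 9 windows, against 12.392% of all 32851 windows of the same length. Each stretch is printed 5′ to 3′ on the strand of its gene, with the 9 matched bases in capitals. Nfe2l2 (minus strand, chr2:75704885-75704913, match starting 240 bases before the start site, on the gene's own strand), Gclm (plus strand, chr3:122245413-122245441, 134 bases before, opposite strand), Txnrd1 (plus strand, chr10:82859104-82859132, 92 bases before, opposite strand) and Srxn1 (plus strand, chr2:152105542-152105570, at base 29 after the start, opposite strand) gave these:
Nfe2l2: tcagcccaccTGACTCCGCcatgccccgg
Gclm: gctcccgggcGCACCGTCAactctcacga
Txnrd1: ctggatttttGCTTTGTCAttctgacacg
Srxn1: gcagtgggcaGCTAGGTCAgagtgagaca
Nqo1, Slc7a11, Keap1 and the other 2 windows of Txnrd1 had no match, which says only that these letters are not in those windows. A match is a description of the sequence, and no binding was measured here.

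Total counts per library ran from 9485197 to 66381526 (median 28476462), and levels are given as counts per 1000000 of the library total (CPM). The pieces of lung differed in tissue content. Acta1, the actin of skeletal muscle, exceeded 1000 CPM in 13 muscle-rich libraries (4 of 7 mock, 2 of 5 mock + NR, 5 of 7 silicon, 2 of 6 silicon + NR, 0 of 7 GCR and 0 of 5 gamma). Rn45s, the precursor of ribosomal RNA, exceeded 100000 CPM in 4 libraries (mock replicate 4 and GCR replicates 2, 5 and 6). It stood there at 200006, 216521, 127726 and 189818 CPM, which lowers the CPM of every other gene by at most that share. Ccl19, a chemokine of lymphoid stroma, exceeded 100 CPM in 3 libraries (mock + NR replicate 4 and silicon replicates 3 and 6), and Nppa, the atrial natriuretic peptide gene, exceeded 10000 CPM in gamma replicates 3 and 4. Gamma replicate 5 is labelled female but had little Xist RNA (3.73 CPM) and 87.6 CPM of Ddx3y, a gene of the Y chromosome, and was kept under its label. Lung markers were present in every group: the summed level of 8 club cell genes, led by Scgb1a1, had group medians from 115385 to 246823 CPM. In whole tissue, fewer cells of a type and less RNA per cell cannot be told apart.

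**Figure D1:**
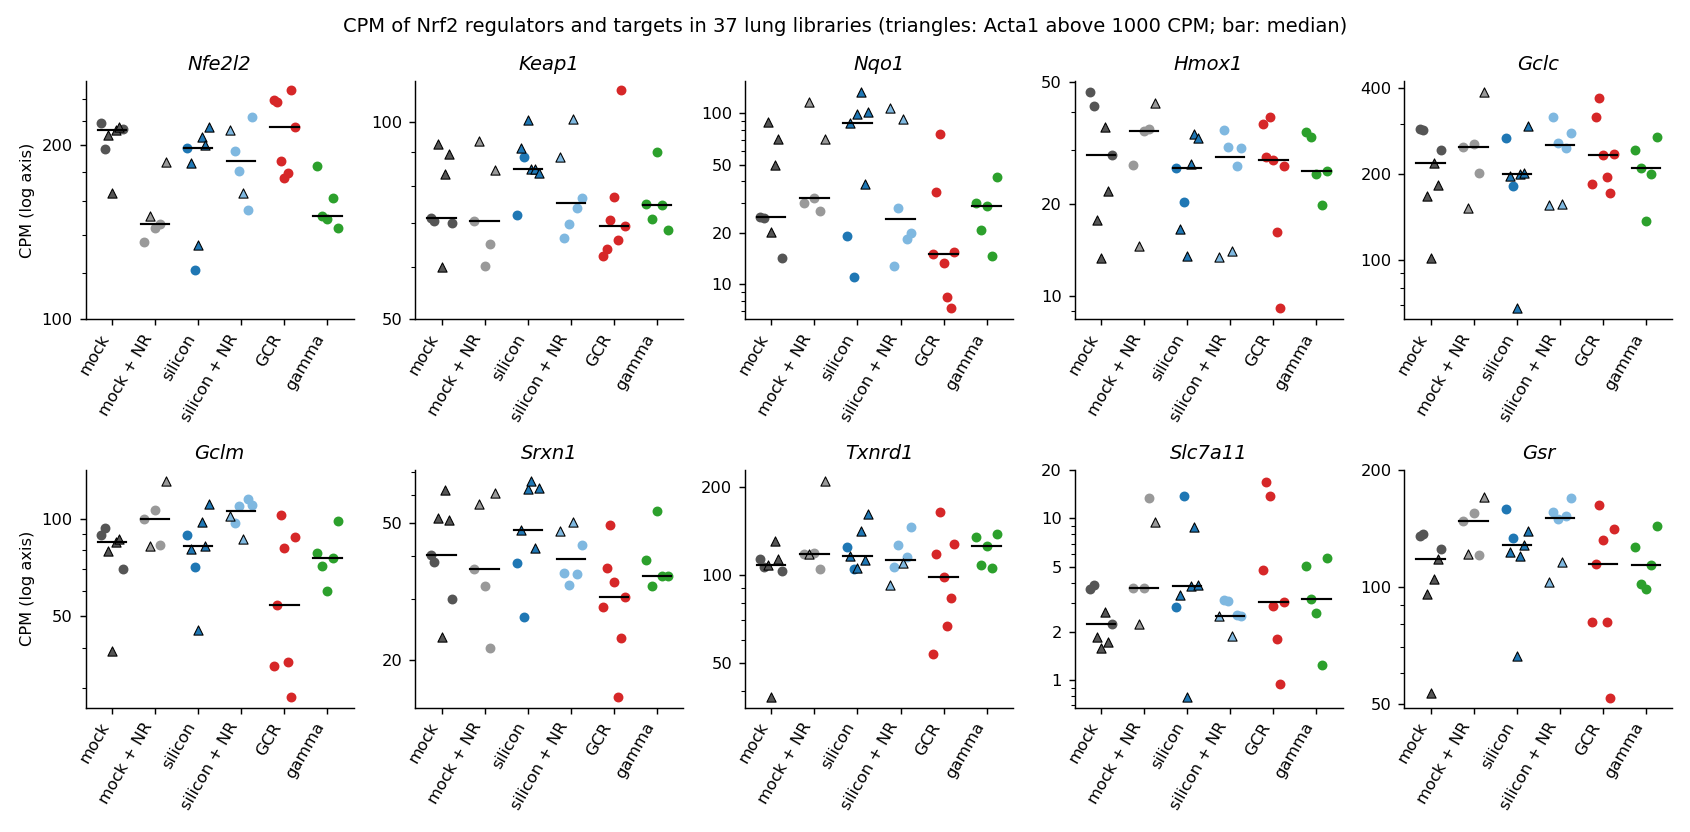
CPM on log axes of the 10 genes in each of 37 libraries, by group; 1 point per library, triangles for muscle-rich libraries, bars for group medians. The groups overlap for every gene, Nqo1 and Slc7a11 spread most widely within most groups, and the muscle-rich mock + NR, silicon and silicon + NR libraries lie high for Nqo1.

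Per kilobase of exon the members covered a wide range of levels. Gclc, the catalytic subunit of the enzyme that starts glutathione synthesis (chromosome 9, 77754535 to 77794485), was highest with a median of 57.9 CPM per kb over all libraries. Nfe2l2 (chromosome 2, 75675513 to 75704641) followed at 49.2, and Gsr, the reductase that returns oxidised glutathione to its reduced form (chromosome 8, 33652523 to 33698163), at 45.3. Next came Nqo1, the quinone reductase (chromosome 8, 107388225 to 107403206), at 18.4, Txnrd1, the cytosolic thioredoxin reductase (chromosome 10, 82833951 to 82897712), at 16.0, and Keap1 (chromosome 9, 21229730 to 21239361) at 15.9. Hmox1, the inducible haem oxygenase (chromosome 8, 75093621 to 75100589), stood at 15.4, Srxn1, the sulfiredoxin that repairs overoxidised peroxiredoxins (chromosome 2, 152105516 to 152111376), at 13.5, and Gclm, the modifier subunit that partners Gclc (chromosome 3, 122245557 to 122270732), at 13.4. Slc7a11, the cystine importer that feeds glutathione synthesis (chromosome 3, 49892526 to 50443614), was lowest at 0.223 CPM per kb, below Gclm in 37 of 37 libraries. Neighbours higher in the order did not separate in this way: Gclc exceeded Nfe2l2 in 27 of 37 libraries, Txnrd1 exceeded Keap1 in 20, and Keap1 exceeded Hmox1 in 17. The reads did not mark strand, and 510 bases of the exons of Keap1 (10.9%) are shared with the antisense gene Gm16754, so its level may include reads of that gene. Gclm likewise shares 296 bases with Gm17494 on the opposite strand and 244 bases with the pseudogene Gm6061 on its own strand.

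The members also differed in how much they varied between mice of a group. The biological coefficient of variation estimated by edgeR was 0.726 for Nqo1 and 0.616 for Slc7a11, against a median of 0.332 over all 16977 genes tested. It was lowest for Keap1 (0.215) and Nfe2l2 (0.225). The other 6 targets lay between 0.247 (Gsr) and 0.353 (Hmox1). The regulators were thus the steadiest members between mice, and Nqo1 and Slc7a11 the least steady.

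After GCR, 1 of the 10 genes passed the test against mock, the cystine importer Slc7a11. Slc7a11 ran from 0.949 to 16.9 CPM in GCR (median 3.06, n = 7) and from 1.59 to 3.90 CPM in mock (median 2.24, n = 7). The 2 highest libraries of all 37 were GCR replicates 2 and 3, at 16.9 and 13.8 CPM, while GCR replicates 5 and 6, at 1.81 and 0.949, lay within or below the mock range, so the groups overlapped. The fitted difference was 1.59 on the log2 scale (SE 0.50), a 3.02-fold higher level (95% interval 1.49 to 6.11), with edgeR adjusted p = 0.0303. This is 1 of 10 members, beside 16.6% of all genes called in the same comparison, so the count is near the background. Muscle content moved with this comparison: the summed level of 10 skeletal muscle genes ran from 40.04 to 113 CPM in GCR (median 51.6) and from 27.02 to 45134 in mock (median 10233), and that of 8 ciliated cell genes had medians of 2399 and 1672 CPM. Their part in the Slc7a11 difference was not tested apart from the fits that follow. Without GCR replicate 2, a library of high Rn45s, the difference was 1.02 (adjusted p = 0.153), and without GCR replicate 3 it was 1.45 (adjusted p = 0.052). Without the 13 muscle-rich libraries it was 1.22 (adjusted p = 0.321), where 0 genes of all were called, and without the 4 of high Rn45s 1.28 (adjusted p = 0.261).

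**Figure D2:**
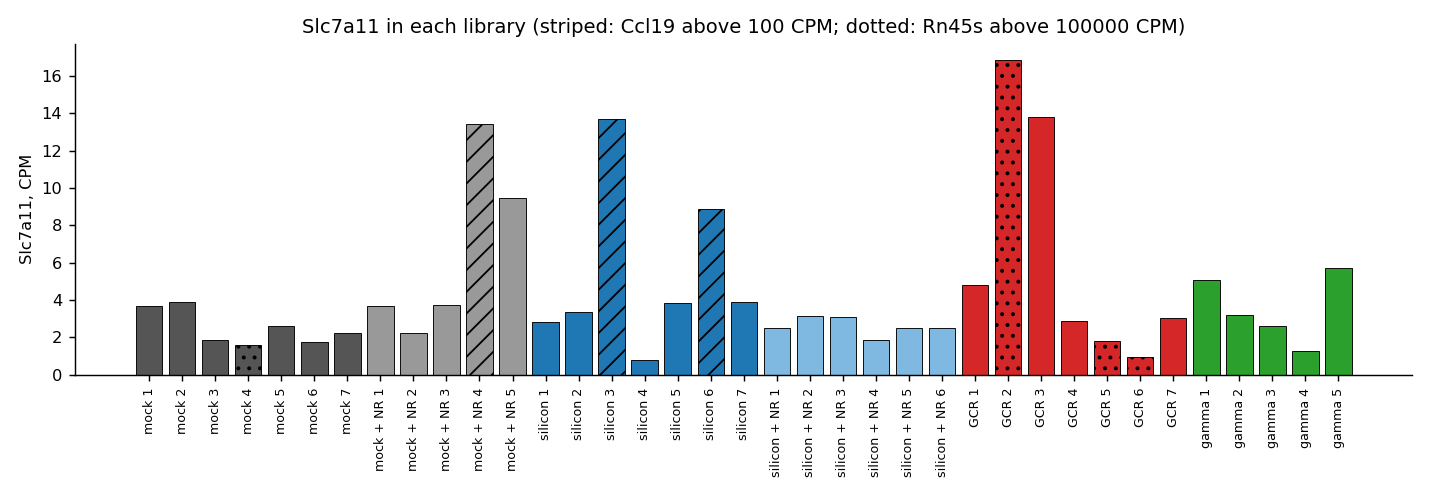
Slc7a11 in CPM in each of the 37 libraries, by group, with bars from 0; striped bars have Ccl19 above 100 CPM and dotted bars Rn45s above 100000 CPM. The highest bars are GCR replicates 2 and 3 at 16.9 and 13.8 CPM, then silicon replicate 3 at 13.7 and mock + NR replicate 4 at 13.4, while the mock and silicon + NR bars stay at or below 3.90 CPM.

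The high GCR libraries for Slc7a11 were male, a split examined after its values were seen. In the 3 GCR males Slc7a11 was at 4.81, 16.9 and 13.8 CPM, all above the 5 mock males, which ran from 1.59 to 3.90 (median 2.63). In the 4 GCR females it was at 2.86, 1.81, 0.949 and 3.06 CPM, around the 2 mock females at 1.73 and 2.24. In a model of group by sex, Slc7a11 rose by 2.46 on the log2 scale in males (SE 0.57, edgeR adjusted p = 0.0248), beside 3.68% of all genes called. In females the difference was 0.25 (SE 0.70, adjusted p = 0.938), beside 0% of genes called by edgeR (1579 at an unadjusted p under 0.05, and 51 called by DESeq2). The difference between the sexes itself was 2.21 (SE 0.88, unadjusted p = 0.0178) and did not pass after adjustment over all genes (edgeR adjusted p = 1), where 0% were called 351 genes had an unadjusted p under 0.05 and DESeq2 called 9. Without GCR replicate 2 the male difference was no longer called (1.88, adjusted p = 0.174). Without the muscle-rich libraries, which leave 2 mock males and 1 mock female, it was 2.02 (adjusted p = 0.341).

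The remaining members did not pass in GCR. Nfe2l2 had 175, 215 and 249 CPM in GCR (lowest, median and highest) and 165, 212 and 218 in mock, a difference of 0.29 on the log2 scale (SE 0.16, edgeR adjusted p = 0.191). Gclc differed by 0.44 (SE 0.24, adjusted p = 0.2), with 171 to 370 CPM in GCR and 102 to 287 in mock. Nqo1 differed by -0.66 (SE 0.59, adjusted p = 0.441), from 7.27 to 76.0 CPM in GCR (median 14.97) and from 14.3 to 89.2 in mock (median 24.7). Gclm, with a median of 54.1 CPM in GCR and 84.6 in mock, differed by -0.23 after scaling (SE 0.20, adjusted p = 0.436). Its 3 lowest GCR values, 28.3, 35.2 and 36.1 CPM, were those of replicates 6, 1 and 5, of which 5 and 6 are high in Rn45s. The fitted differences of the other 5 lay between -0.25 (Srxn1) and 0.18 (Txnrd1 and Gsr). Of these, Keap1, Hmox1, Txnrd1 and Gsr had positive fitted differences but lower mean CPM in GCR than in mock. CPM are not scaled, while the fit uses TMM scaling and a sex term. Of the 10 fitted differences 7 were positive, with a median of 0.16, while the median over all genes was -0.06 and 45.1% of all genes were positive. Without the libraries of high Rn45s 5 were positive with a median of 0.03, and by limma voom 6 with a median of 0.03.

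Silicon ions left all 10 members uncalled, as they did every gene (0% called by edgeR, with 2185 genes at an unadjusted p under 0.05, 425 called by DESeq2 and 1 by limma voom). The largest difference was again that of Slc7a11, 1.23 on the log2 scale (SE 0.50, adjusted p = 0.249), the only member with an unadjusted p under 0.05. Slc7a11 ran from 0.791 to 13.7 CPM in silicon with a median of 3.82, and its 2 highest silicon libraries, replicates 3 and 6 at 13.7 and 8.87 CPM, were those rich in Ccl19. Without the 3 lymphoid-rich libraries the difference was 0.50 (adjusted p = 0.819). Over all groups the 3 lymphoid-rich libraries had 8.87 to 13.7 CPM of Slc7a11. The other 34 ran from 0.791 to 16.9 CPM with a median of 2.96, so the 2 kinds overlapped. The summed level of 6 B cell genes ran from 45.8 to 1929 CPM in silicon (median 243) and from 34.3 to 232 in mock (median 73.0). That of 6 T cell genes ran from 19.9 to 906 CPM in silicon (median 54.7) and from 23.3 to 74.0 in mock (median 49.4), so the medians were close and the highest silicon libraries stood apart. The 10 endothelial genes were all negative in silicon against mock, with a median of -1.32 and 9 at an unadjusted p under 0.05, and none was called. The part of these cell types in the members' values was not tested.

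Nqo1 had the next largest silicon difference, 0.96 on the log2 scale (SE 0.62, adjusted p = 0.565). Its 7 silicon libraries ran from 11.1 to 134 CPM with a median of 88.2, and the 7 mock libraries from 14.3 to 89.2 with a median of 24.7. The 5 silicon libraries rich in muscle had 38.4 to 134 CPM, and the 2 others 19.2 and 11.1. Without the muscle-rich libraries the sign turned in silicon (-0.68), and it turned as well in GCR (0.46, against -0.66 with all libraries) and in gamma (0.66, against -0.57). None of these values was called.

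Gamma rays likewise left all 10 members uncalled, beside 0.0295% of all genes. Nfe2l2 had 184, 151, 149, 162 and 143 CPM in the 5 gamma libraries, 4 of them below all 7 mock libraries. Its fitted difference was -0.38 on the log2 scale (SE 0.17, unadjusted p = 0.0369, edgeR adjusted p = 0.456). Without the muscle-rich libraries, without those of high Nppa, or with Acta1 and Rn45s in the model, 0 members had an unadjusted p under 0.05. There 8.94%, 11.5% and 15.6% of all genes did. In the other alternatives, apart from leaving out single libraries, 1 member did. The 10 skeletal muscle genes were all negative (median -8.13) and the 8 cardiac muscle genes all positive (median 1.81). Their part was not tested. Slc7a11 had 5.08, 3.18, 2.61, 1.25 and 5.73 CPM, a difference of 0.67 that did not pass. The 10 differences split into 5 positive and 5 negative, with a median of -0.02. Silicon, GCR, gamma and mock + NR were compared with the same 7 mock mice, so their values are given side by side only.

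**Figure D3:**
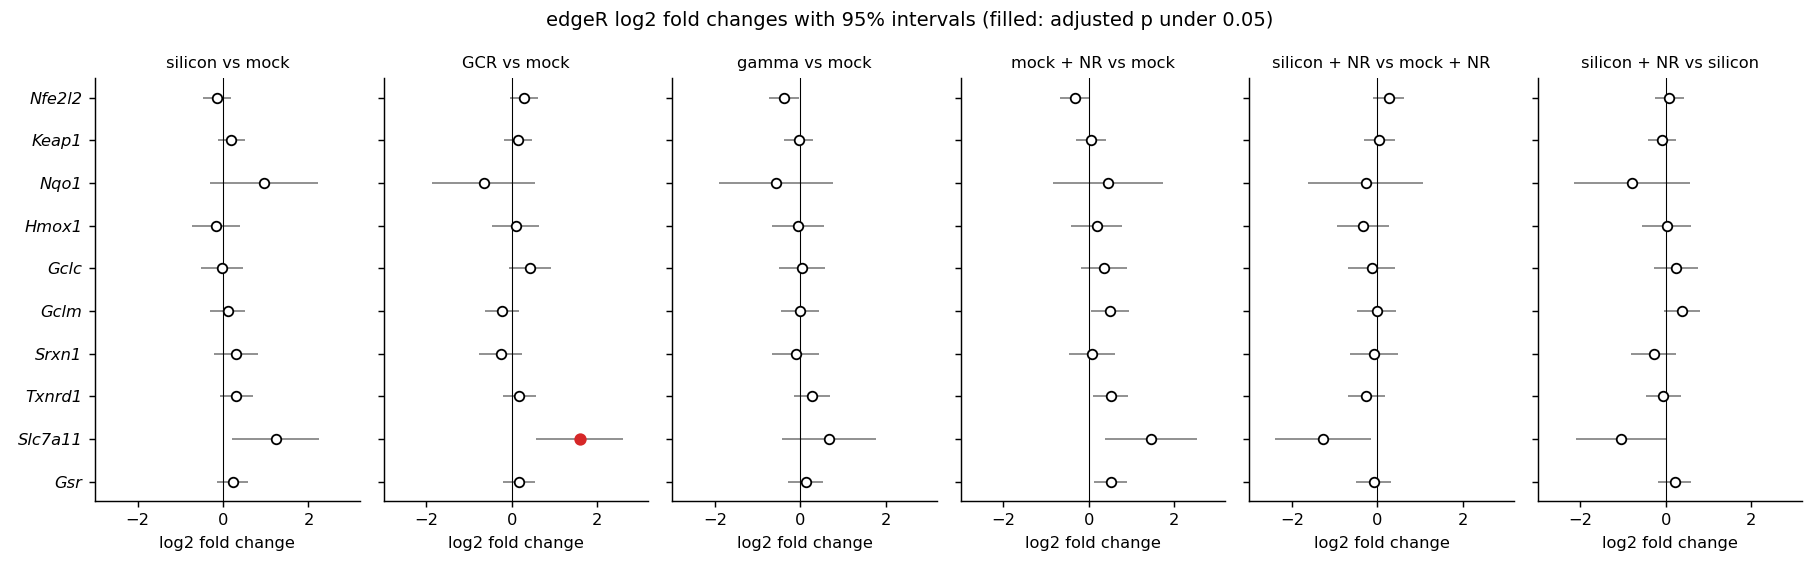
Log2 fold changes of the 10 genes from edgeR, with 95% intervals, in 6 comparisons; points right of 0 are higher in the group named first, and filled points have an adjusted p under 0.05. Slc7a11 in GCR against mock, at 1.59, is the only filled point, and the intervals of Nqo1 and Slc7a11 are the widest.

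For NR in drinking water without radiation, 9 of the 10 fitted differences from mock were positive and none passed the test (0% of all genes called by edgeR, with 2875 at an unadjusted p under 0.05, 591 called by DESeq2 and 994 by limma voom). The median difference from mock was 0.40 on the log2 scale, beside -0.01 over all genes, of which 48.5% were positive. In 4 members the unadjusted p was under 0.05: Slc7a11 (1.45, SE 0.53, edgeR adjusted p = 0.146), Gsr (0.51, SE 0.19, adjusted p = 0.162), Txnrd1 (0.51, SE 0.21, adjusted p = 0.185) and Gclm (0.50, SE 0.21, adjusted p = 0.213). Gsr had 148, 122, 155, 121 and 170 CPM in mock + NR and ran from 53.3 to 137 in mock (median 118). Gclm had 100, 82.2, 107, 83.3 and 131 CPM in mock + NR and ran from 39.0 to 93.6 in mock (median 84.6). For both genes the ranges overlapped, and the lowest mock value came from replicate 4, a library of high Rn45s. Txnrd1 had 119, 118, 119, 105 and 211 CPM in mock + NR and 38.2 to 130 in mock. Its lowest mock value was also that of replicate 4, with the other mock libraries at 103 to 130 CPM. Replicate 5 of mock + NR, the only female of that group, had the group's highest Txnrd1, Gsr and Gclm. Slc7a11 had 3.69, 2.22, 3.72, 13.4 and 9.44 CPM in mock + NR, with the highest value in the lymphoid-rich replicate 4. The exception was Nfe2l2, at 136, 151, 144, 146 and 187 CPM, 4 of 5 below all mock libraries, with a difference of -0.33 (SE 0.17, adjusted p = 0.346).

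The tissue content moved with NR as well. The summed level of the 8 club cell genes ran from 123387 to 348504 CPM in mock + NR (median 246823) and from 73202 to 184422 in mock (median 131853). The summed level of 10 endothelial genes had medians of 578 CPM in mock + NR and 2193 in mock, and all 10 differences of these genes were negative. The 8 ciliated cell genes were all positive, with a median of 1.08 on the log2 scale, and those of alveolar type 1 and type 2 cells had medians of -1.07 and -1.29. No gene of these lists was at 0 in a whole group, and none was called. The part of these shifts in the members' values was not tested. Without the muscle-rich libraries 6 of the 10 differences were positive, with a median of 0.15, and Gsr (0.25), Txnrd1 (0.22) and Gclm (0.37) were smaller. Without the libraries of high Rn45s 8 of 10 were positive, with a median of 0.30.

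In mice on NR, silicon ions gave no called member against mock + NR (0% of all genes called, with 367 at an unadjusted p under 0.05). Slc7a11 stayed between 1.89 and 3.14 CPM in all 6 silicon + NR libraries (median 2.51), while mock + NR ran up to 13.4. Its difference was -1.27 on the log2 scale (SE 0.55, unadjusted p = 0.0284, edgeR adjusted p = 1), and -0.76 without the muscle-rich libraries. Lymphocyte genes moved with it: all 6 T cell and all 6 B cell genes had negative differences at an unadjusted p under 0.05, with medians of -2.36 and -2.15, and none was called. Without the lymphoid-rich libraries Slc7a11 differed by -0.97. Against silicon without NR no member had an unadjusted p under 0.05, beside 0% of all genes called by edgeR, 2171 at that unadjusted level, 353 called by DESeq2 and 4207 by limma voom. There Nqo1 differed by -0.79 (SE 0.67), and 2 of 6 silicon + NR against 5 of 7 silicon libraries were rich in muscle. Its sign turned without the muscle-rich libraries (0.85, edgeR adjusted p = 0.658), while limma voom gave -1.73 and called it (adjusted p = 0.0162).

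The interaction asks whether the silicon difference depended on NR. For Slc7a11 it was -2.50 on the log2 scale (SE 0.74, unadjusted p = 0.00202, edgeR adjusted p = 0.118): the fitted silicon difference was 1.23 without NR and -1.27 with it. No gene was called (0%, with 1689 at an unadjusted p under 0.05). By DESeq2 the same value was called (-2.47, adjusted p = 0.0376), and over the other alternatives with all groups the adjusted p ran up to 0.994. That highest value came from leaving out the 3 lymphoid-rich libraries, where the interaction was -1.47. Of the 10 interactions 9 were negative, with Nfe2l2 (0.41) as the exception. Over all genes the median interaction was -0.08 and 40.5% were positive.

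Between females and males no member was called, beside 0.0589% of all genes. The difference of Slc7a11, female minus male, was -0.70 on the log2 scale (SE 0.32, unadjusted p = 0.0369, edgeR adjusted p = 1), and the other members lay between -0.40 (Nqo1) and 0.06 (Txnrd1).

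Several members differed with the muscle content of the library. The 13 muscle-rich libraries had 20.3 to 134 CPM of Nqo1 (median 89.2), and the other 24 had 7.27 to 76.0 (median 20.3). The higher median held inside each group that has both kinds, with a ratio of 2.45 in mock, 3.12 in mock + NR, 6.55 in silicon and 5.20 in silicon + NR. Srxn1 had medians of 51.4 and 35.01 CPM in the 2 kinds of library and Keap1 of 88.7 and 70.8. Hmox1 went the other way, at 17.7 and 28.6 CPM, and Gclc at 183 and 246. Inside the groups the lower median of Hmox1 did not hold in silicon (ratio 1.16), nor that of Gclc in mock + NR (ratio 1.08). In a model with the 6 groups, sex and the log2 levels of Acta1 and Rn45s, 4 of the 10 members changed with Acta1. This is beside 41.8% of all genes, so the count is near the background and not particular to the members. Per doubling of Acta1, Nqo1 rose by 0.20 on the log2 scale (SE 0.03, edgeR adjusted p = 1.42e-05), Srxn1 by 0.07 (adjusted p = 5e-04) and Keap1 by 0.04 (adjusted p = 0.000607), while Gclc fell by 0.05 (adjusted p = 0.0379). Hmox1 at -0.05 per doubling (adjusted p = 0.0614) did not pass.

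Within each kind of library the relation with Acta1 took different values. Among the 13 muscle-rich libraries alone, Nqo1 rose by 0.45 per doubling of Acta1 (edgeR adjusted p = 0.0268) and Keap1 by 0.14 (adjusted p = 0.0236). Among the 24 others no member was called, and the values of Nqo1 and Srxn1 were -0.060 and -0.016. The shares of all genes called in these fits are not given here, so these counts cannot be set against a background. The squamous keratin Krt5 moved with muscle, at 20.2 to 789 CPM in the muscle-rich libraries and 0.0368 to 44.8 in the others, so these tissues cannot be told apart here. With Rn45s 0 of the 10 members were called, beside 28.5% of all genes. The smallest adjusted p was that of Keap1 (0.08 per doubling, edgeR adjusted p = 0.065, unadjusted p = 0.02), and Nfe2l2 was the other member with an unadjusted p under 0.05.

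**Figure D4:**
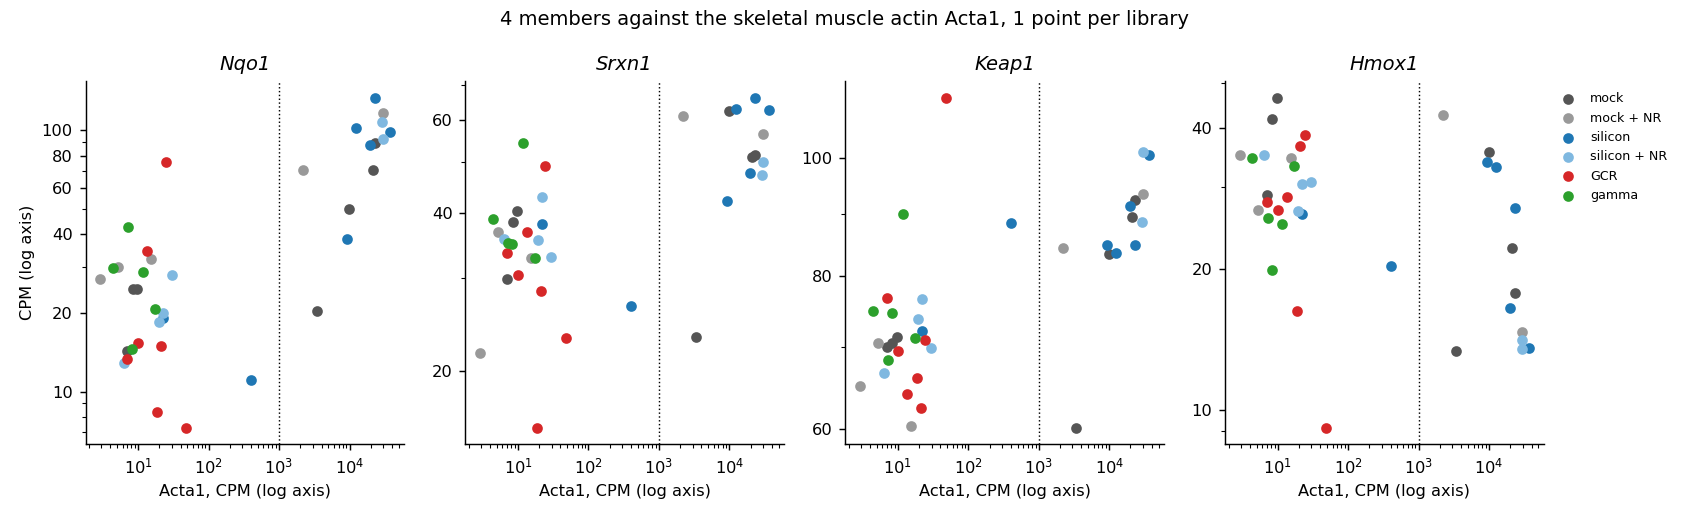
CPM of Nqo1, Srxn1, Keap1 and Hmox1 against CPM of Acta1, both on log axes, 1 point per library coloured by group; the dotted line marks 1000 CPM of Acta1. Nqo1, Srxn1 and Keap1 are mostly higher to the right of the line, with mock replicate 4 as the low point there; Nqo1 has a median of 89.2 CPM on the right and 20.3 on the left, and Hmox1 has a lower median on the right.

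Pairs of members were compared over libraries by the correlation of their levels. Since Acta1 splits the libraries into 2 clusters, correlations of log2 CPM were read within the 24 libraries that are not muscle-rich and within the 13 that are. Among the 24, 19 of the 45 pairs passed by both Pearson's r and Spearman's rho (permutation test with 100000 resamples, two-sided, adjusted over the 45 pairs), all of them positive. Among the 13, 6 of 45 passed, 5 positive and 1 negative, and over all 37 libraries 20 did, 18 positive and 2 negative. Without the 4 libraries of high Rn45s 15 of 45 passed and the median r was 0.171, against 0.302 over all 37. The 24 libraries span all 6 groups, the pairs share libraries and totals, and the share among pairs of all genes was not computed, so the counts describe these pairs and say nothing particular to them.

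The tightest pair was Gclm with Gsr, the enzymes for making and for recycling glutathione. In the 24 libraries r was 0.906 and rho 0.863 (permutation p = 1e-05 for each, the smallest that 100000 resamples can give, adjusted p = 0.00045 and 0.00015), and r was 0.858 without the 2 libraries farthest from the median of Gclm. In the 13 muscle-rich libraries r was 0.901 and rho 0.830 (permutation p = 0.00021 and 0.00078, adjusted p = 0.00945 and 0.0202), with r at 0.652 without the 2 farthest. Nqo1 with Txnrd1 followed in the 24 libraries, with r = 0.761 and rho = 0.737 (permutation p = 5e-05 and 9e-05, adjusted p = 0.00112 and 0.000675) and r = 0.672 without the 2 farthest. In the muscle-rich libraries that pair did not pass (r = 0.595 and rho = 0.352, permutation p = 0.0341 and 0.237, adjusted p = 0.0958 and 0.426), and r was -0.127 without the 2 farthest.

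Nqo1 with Hmox1 had opposite signs in the 2 kinds of library. Among the 24 libraries r was 0.655 and rho 0.670 (permutation p = 0.00042 and 0.00048, adjusted p = 0.00264 and 0.002), with r = 0.633 without the 2 farthest. In the muscle-rich libraries r was -0.312 and rho -0.489 (permutation p = 0.301 and 0.0923, adjusted p = 0.481 and 0.231), and r was -0.549 without the 2 farthest. Keap1 with Hmox1 was the negative pair among the 13 muscle-rich libraries (r = -0.793 and rho = -0.802, permutation p = 0.00236 and 0.00135, adjusted p = 0.0152 and 0.0202, r = -0.756 without the 2 farthest). It did not pass in the 24 others (r = -0.459 and rho = -0.196, permutation p = 0.0317 and 0.356, adjusted p = 0.0548 and 0.458, r = -0.171 without the 2 farthest). Nfe2l2 RNA went with only 1 target in the 24 libraries, Gclc (r = 0.526 and rho = 0.493, permutation p = 0.00884 and 0.0152, adjusted p = 0.0234 and 0.0359), where r was 0.385 without the 2 farthest.

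**Figure D5:**
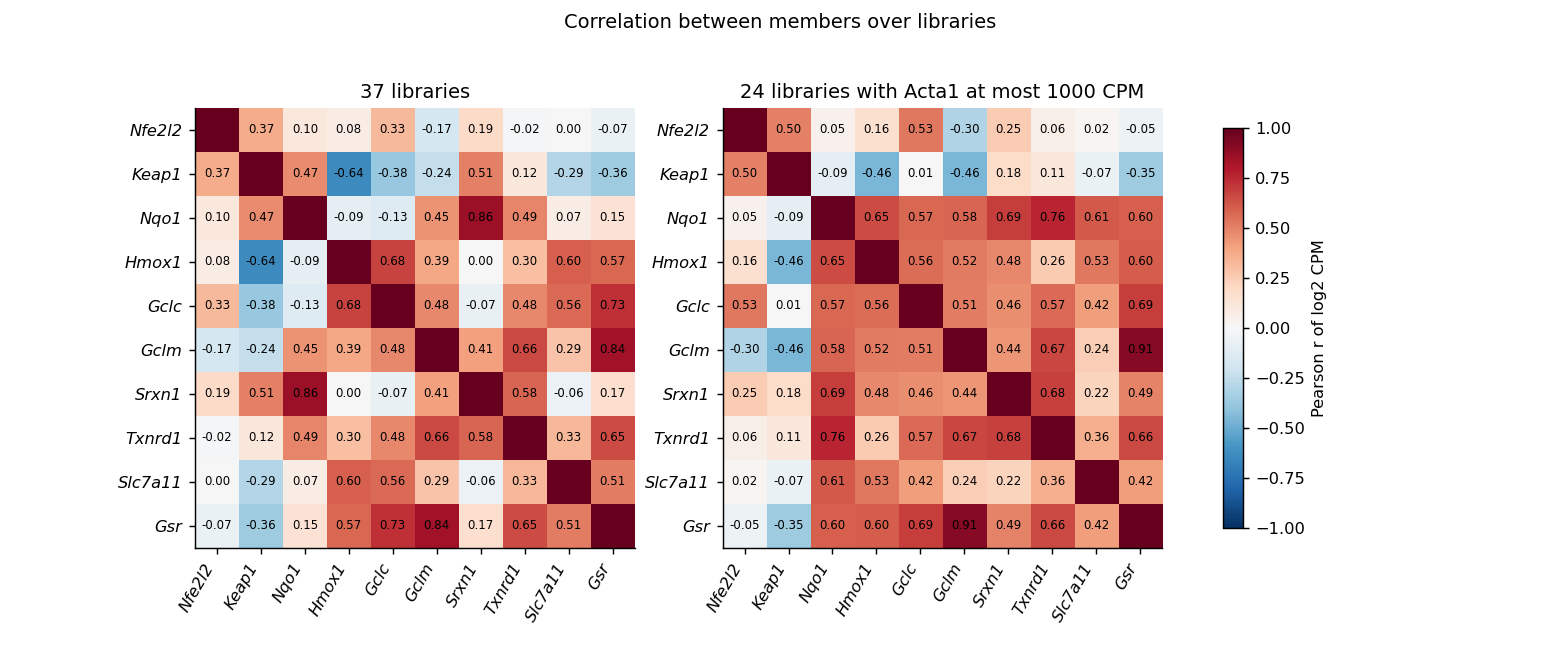
Pearson's r of log2 CPM between the 10 genes, over 37 libraries (left) and over the 24 with at most 1000 CPM of Acta1 (right); red is positive and blue negative. On the right the targets form a block of positive values with Gclm and Gsr at 0.91, while the values of Nfe2l2 and Keap1 with the targets lie between -0.46 and 0.25, except Nfe2l2 with Gclc at 0.53.

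The genes most like each member, by Spearman's rho over 37 libraries among 11909 genes, were often other genes of oxidant defence. Gclm was most like Gstm1, a glutathione transferase (rho 0.928, and 0.916 without the muscle-rich libraries). Hmox1 and Gclc were both most like Prdx6, a peroxiredoxin (0.853 and 0.859, the latter tied with Tmem56), and Hmox1 next like Gsta3, another glutathione transferase (0.805). Nqo1 was most like the aldehyde oxidase Aox1 (0.886, and 0.757 without the muscle-rich libraries). Nqo1 was in turn among the 2 genes most like Srxn1 (0.865). Txnrd1 was most like Abcb6 (0.788) and the carbonyl reductase Cbr3 (0.782). Keap1 was most like Zswim7 (0.900) and Tigar (0.891), Gsr like Ikbkg (0.885) and Rab15 (0.875), and Nfe2l2 like Dbndd2 (0.816) and Mob4 (0.721). Slc7a11 was most like the histone variant H2afz (0.784) and then Hmox1 (0.705).

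Another 52 genes of the pathway were taken from lists of Nrf2 partners and of glutathione, thioredoxin, NADPH, detoxification and haem genes, and all 52 were tested. After GCR, 6 rose and 1 fell against mock, which is 7 of 52. Gpx2, a glutathione peroxidase of epithelium, rose by 1.44 on the log2 scale (SE 0.35, edgeR adjusted p = 0.0116). Nfe2l3, a relative of Nrf2, rose by 1.14 (SE 0.27, adjusted p = 0.0108), Bach2, a repressor that also binds Maf sites and was added here after its value was seen, by 1.09 (adjusted p = 0.0488), and Mgst2, a microsomal glutathione transferase, by 0.76 (adjusted p = 0.0413). Gsk3b, a kinase that marks Nrf2 for degradation, rose by 0.66 (adjusted p = 0.0264) and Txn1, thioredoxin itself, by 0.50 (adjusted p = 0.0394). Ugdh, which makes UDP-glucuronate, fell by 0.49 (adjusted p = 0.0202). These are beside 16.6% of all genes, and no gene was called without the muscle-rich libraries or without those of high Rn45s. By limma voom 1 of the 52 was called and by DESeq2 9. By list, 3 of 12 partners and regulators, 2 of 14 glutathione, 1 of 5 thioredoxin, 1 of 8 detoxification, 0 of 6 NADPH and 0 of 7 haem and iron genes were called. The 52 differences had a median of 0.06, with 31 positive and 21 negative.

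In mock + NR against mock none of the 52 was called by edgeR, while 40 were positive, and all 15 with an unadjusted p under 0.05 were higher. Over all genes 48.5% were positive and 16.9% had an unadjusted p under 0.05. The 14 other glutathione genes were positive in 14 of 14, with a median of 0.62 on the log2 scale and 9 at an unadjusted p under 0.05. Without the muscle-rich libraries they remained positive in 14 of 14, with a median of 0.62, 3 at that level and 0 called. There 18.1% of all genes were at that level. Over all 37 libraries DESeq2 called 2 of the 52 genes and limma voom 6, of which 0 and 4 were among the 14. These stand beside the counts over all 16977 genes given above for both fits. The 2 of smallest p among the 52 were Nfe2l3 (1.13, SE 0.29, adjusted p = 0.102) and the carbonyl reductase Cbr1 (0.79, SE 0.21, adjusted p = 0.102). The shifts in club cell and endothelial genes given above stand beside these values too. Silicon, gamma and the comparisons within NR mice also gave 0 called among the 52. The 2 of smallest p were Mgst2 (0.73) and Bach1 (-0.39) in silicon against mock, and Nfe2l3 (0.83) and Me1 (1.18) in gamma against mock.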

How the data were processed

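Lung RNA of 37 mice was read by sequencing. The deposited values are raw read counts, whole numbers for each gene symbol. Per the labels' protocols, RNA was extracted with Trizol and libraries were made with SMART-seq v4 and Nextera XT. These kits do not mark strand. STAR 2.5.2, HTSeq 0.13.5, Trimmomatic 0.36, FastQC 0.11.4, MultiQC 1.12 and the build mm10 are named, per the submitters' processing notes, while settings are not given there. Counts come from amplified cDNA without molecular identifiers and are not independent molecules.

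CPM are the deposited counts divided by library totals. Differences were tested with edgeR 4.0.16 (R 4.3.3) by the quasi-likelihood test, with TMM scaling and filterByExpr (16977 genes), in a model of 6 groups and sex fitted to all 37 libraries, whose spread is thus estimated jointly. P-values were adjusted by the Benjamini-Hochberg method over all genes tested, and a gene was called below an adjusted p of 0.05. The test was also run on simulated counts, and the outcome is not reported here. Log2 CPM, which the correlations use, were TMM-scaled with a prior count of 2. Coordinates and exon lengths are from GENCODE M21 on GRCm38 (mm10). Groups and sex came from the labels, and replicate numbers, given in accession order, only name mice. No library was a copy of another in its group: chi-square per degree of freedom was at least 19.2 in every pair. The edgeR p-values set each difference against the spread between these libraries, which includes the tissue content of the pieces.

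The members and gene lists were chosen with earlier results of these data known. The text names all 10 members, up to 6 called pathway genes per comparison by smallest p (2 where none was called; Bach2, the seventh in GCR, was added after its values were seen), the 2 genes most like each member among genes of mean log2 CPM of at least 2 (1 of these is not reported here), and the tissue markers. Alternatives were RLE size factors, no count filter, DESeq2 1.42.0, limma 3.58.1 voom with quality weights, no sex term, only the groups compared, leaving out each library in turn or each tissue-rich kind, and Acta1 and Rn45s as covariates. The alternatives for the Acta1 and Rn45s terms, and the model of group by sex with its own, were added after the values were seen.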

Additional observations from a re-analysis of the deposited data

Results flagged for a closer look

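In 7 of 60 sets of a gene and a group, 1 library stood apart from the rest of its group by more than the limit that chance passes in about 1 in 20. Nfe2l2 was at 165 CPM and Txnrd1 at 38.2 CPM in mock replicate 4, a library of high Rn45s, while the other mock libraries ran from 197 to 218 and from 103 to 130. Keap1 was at 112 CPM in GCR replicate 6, the library of the smallest total and also high in Rn45s, against 62.3 to 76.8 in the others. Nqo1 was at 76.0 CPM in GCR replicate 3, with 24.5 CPM of Acta1, against 7.27 to 34.6. Srxn1 was at 54.2 CPM in the heart-rich gamma replicate 3, against 32.8 to 39.0. Txnrd1 was at 211 CPM in mock + NR replicate 5, against 105 to 119. Gsr was at 66.4 CPM in silicon replicate 4, the library with the most Acta1, against 120 to 158.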

How the results depend on the processing

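In GCR against mock 1 member, Slc7a11, was called, and 0 were with limma voom, without the muscle-rich libraries, without those of high Rn45s, or with Acta1 and Rn45s as covariates. Leaving out 1 library at a time gave 0 to 1, with 0 without GCR replicates 2 and 3 and mock replicates 3, 5 and 6. The difference of Slc7a11 stayed positive in all of these fits, from 1.02 to 1.74 on the log2 scale. In GCR males the count of 1 became 0 without the muscle-rich libraries, without those of high Rn45s and with the covariates, and 0 to 2 with 1 library left out (0 without GCR replicate 2 and mock replicates 3 and 5, and 2, with Nfe2l2, without GCR replicate 3). In other comparisons 0 became 1 for silicon + NR against silicon with limma voom (Nqo1, -1.73, adjusted p = 0.0162) and for the interaction with DESeq2 (Slc7a11). Of the 4 members called with Acta1, 0 were without the muscle-rich libraries, where Nqo1 (-0.060) and Srxn1 (-0.016) turned sign uncalled. In the muscle-rich libraries alone 2 were called, and the shares of all genes in these fits are not given here. Leaving out 1 library gave 3 to 5 members, beside 5491 to 7695 genes of all. For Rn45s the count of 0 became 1 with 1 covariate at a time, without the muscle-rich and without the heart-rich libraries, and 0 to 1 with 1 library left out. The cause of these changes was not tested. Correlated pairs numbered 20 as reported, 26 after removing group and sex, 19 without the muscle-rich libraries and 15 without those of high Rn45s.

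Over all genes, the 2811 called in GCR became 0 without either kind of library or with the covariates, 909 with only the groups compared, 1516 with limma voom, and 501 to 4087 with 1 library left out. The 625 in GCR males became 312 without a count filter, 2411 with DESeq2 and 0 without the muscle-rich libraries or with the covariates. The 0 of mock + NR against mock became 591 with DESeq2, 994 with limma voom and 425 without the muscle-rich libraries; the 0 of silicon against mock became 425, 1 and 725; the 0 of silicon + NR against silicon became 353, 4207 and 179. The 5 of gamma became 259, 238 and 0, and the interaction's 0 became 327 with DESeq2 and 1335 without the muscle-rich libraries. Only 2 silicon libraries remain there. Replicates carry no numbers in the labels, so no paired analysis was possible because nothing pairs the mice. Depth limits Slc7a11 most, whose median of 2.24 CPM in mock is the lowest of any member.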
